A study of Mus musculus with 104 samples.

Results

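The telomere-proximal ends of the autosomes were taken as the last 5 Mb below the highest junction position seen on each of chromosomes 1 to 19 over all 24 deposited tables, cut into bins of 250 kb. This gave 380 of the 9652 bins of the autosomes. Junctions on the chromosome that carried the bait break were left out, and each read was counted once per table. Of 440324 such junctions, 22416 (5.09%) lay in the 19 ends. The position set the ends, and no junction density entered the choice. The 5 Mb reach of an end is measured from the highest position read, since the length of each assembled chromosome and the true telomere were not used here.

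Mouse chromosomes are acrocentric. Their centromere lies at the low end of the coordinates and the far end carries subtelomeric DNA and then the telomere, an array of a short hexamer repeat that shelterin proteins shield from end joining. Subtelomeres hold segmental duplications and tandem repeats, and short reads from such DNA can be placed at the wrong copy. When replication is slowed, breaks in neural progenitors gather in long, late replicating neural genes, the recurrent DNA break clusters that this study looked for in cultured cells.

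The assay was high-throughput genome-wide translocation sequencing, in which a break at a fixed bait site joins to other breaks (the prey) and the junctions are amplified from the bait and read. The cells were neural progenitor cells (NPC) derived in culture from embryonic stem cells (ESC), and the ESC themselves. All were of strain C57BL6/129SVE and genotype Xrcc4-/- p53-/-, so that all groups, controls included, lacked Xrcc4, a factor of classical end joining, and the tumour suppressor p53. There were 2 lines of each cell type, baits on chromosome 7, 12 or 15, and treatment with APH (aphidicolin, an inhibitor of replicative DNA polymerases) or with DMSO, its solvent. The 104 experiments were deposited as 24 pools, 6 for each of NPC under APH, NPC under DMSO, ESC under APH and ESC under DMSO. Each condition thus held 1 pool for each of 6 pairs of a line and a bait. The off-bait autosomal junctions of a pool numbered 13242 to 75247 in NPC under APH, 10434 to 50324 in NPC under DMSO, 4520 to 8731 in ESC under APH and 3544 to 10869 in ESC under DMSO. Whether the experiments of a condition were grown separately is not labelled, and the p-values speak of the spread among pools, which may be technical. The cell types could not be checked against marker genes, since the assay reads DNA.

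Single places of the ends held many junctions, and their letters are given first. Of the 1 kb sites in the ends, 20 held 20 or more junctions over the 24 pools. They held 1019 junctions (4.55% of those in the ends) at 0.211 sites per Mb, against 182 such sites with 3.62% of the junctions and 0.0784 sites per Mb in the rest. This contrast was not tested, and 9 of the 20 sites lay in 2 clusters, with 5 within a few kb of each other on chromosome 9 and 4 close together on chromosome 2. For each site, the letters shared by its prey reads were taken as 1 unbroken stretch of at most 250 bases. That stretch may cover only part of the site, or reach past it. Stretches are printed on the plus strand of mm9, with the longest tandem run of 20 or more bases in capitals. A run has a unit of up to 6 bases in 3 or more copies. Such a run was found in the stretches of 9 of the 20 sites. Letters outside the stretches were not searched for runs.

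The busiest site lay 85.4 kb from the end of chromosome 2 and held 148 junctions in 21 pools. It is shown because no tandem run was found in its stretch, which holds 50 of these junctions. The next site held 82 junctions on chromosome 9 and has a GGCA run of 44 bases. A site with 75 junctions 71.8 kb from the end of chromosome 2 has the run CTGC, over 32 bases. The GGCA and CTGC runs, on different chromosomes, are the same repeat read on opposite strands. The 34 letters in a row that the 2 sites share are letters of that repeat.
chr2:181652359-181652532: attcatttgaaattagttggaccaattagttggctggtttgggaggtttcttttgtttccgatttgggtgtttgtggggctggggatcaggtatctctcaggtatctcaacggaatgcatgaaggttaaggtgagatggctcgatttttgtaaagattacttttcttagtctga
chr9:121838386-121838635: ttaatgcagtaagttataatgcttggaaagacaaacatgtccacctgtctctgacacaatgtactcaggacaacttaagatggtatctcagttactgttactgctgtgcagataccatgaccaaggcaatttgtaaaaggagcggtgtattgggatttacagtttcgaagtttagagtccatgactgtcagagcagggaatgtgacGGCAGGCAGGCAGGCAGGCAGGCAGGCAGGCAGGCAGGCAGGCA
chr2:181665935-181666041: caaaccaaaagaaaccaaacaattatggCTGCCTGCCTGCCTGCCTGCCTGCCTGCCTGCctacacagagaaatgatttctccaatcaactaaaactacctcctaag

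Other sites were little more than a run. A site on chromosome 17 with 58 junctions is an ATCT run of 48 bases. Sites with 49 junctions on chromosome 16 and 45 on chromosome 8 are runs of C of 46 and 55 bases, and a site with 29 junctions on chromosome 1 is a run of G of 39 bases, the same letters on the other strand. A site on chromosome 13 with 46 junctions holds TGCCTC over 150 bases, the longest run among the stretches of the 20 sites.
chr17:91418051-91418108: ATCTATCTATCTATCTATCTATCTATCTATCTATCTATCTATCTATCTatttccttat
chr16:93686956-93687010: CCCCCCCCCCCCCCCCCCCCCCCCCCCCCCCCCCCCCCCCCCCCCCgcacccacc
chr8:128579929-128579985: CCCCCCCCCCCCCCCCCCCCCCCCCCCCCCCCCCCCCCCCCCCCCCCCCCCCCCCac
chr1:194484355-194484395: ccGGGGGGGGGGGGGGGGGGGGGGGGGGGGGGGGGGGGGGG
chr13:118847368-118847609: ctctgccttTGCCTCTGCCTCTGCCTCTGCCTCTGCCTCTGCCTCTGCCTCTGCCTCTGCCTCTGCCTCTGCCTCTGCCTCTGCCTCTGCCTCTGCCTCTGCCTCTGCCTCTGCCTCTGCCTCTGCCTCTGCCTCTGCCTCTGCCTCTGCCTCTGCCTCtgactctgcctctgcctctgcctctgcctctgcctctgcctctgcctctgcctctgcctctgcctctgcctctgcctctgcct

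A further group is shown for repeats with longer units or letters known from elsewhere. The site at the very end of chromosome 4, within 1 kb of the highest position, held 57 junctions, 44 of them in NPC under DMSO, and its letters repeat at a shift of 25 bases with 93.4% of letters equal. All 57 of its prey reads held the letters accacgcgtg. These are also the 10 letters that most often followed the prey in the reads, in 49.7% of 426918 reads long enough to show them. Over all prey reads, 58 of 22416 in the ends and 35 of 417908 in the rest held these letters. A site on chromosome 9, 294 kb from the end with 43 junctions, repeats exactly at a shift of 31 bases. There 26 reads matched 25 letters of the RefSeq promoter of Gm51701, and no gene position on mm9 was used. A site of 51 junctions, 705 kb from the end of chromosome 9, carries letters that textbook knowledge places in the large-subunit ribosomal RNA; no table used here names it. Sites on chromosomes 1 and 19, of 27 and 22 junctions, share 65 letters in a row.
chr4:155610604-155610689: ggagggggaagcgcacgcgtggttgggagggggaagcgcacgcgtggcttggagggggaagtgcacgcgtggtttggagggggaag
chr9:123782216-123782289: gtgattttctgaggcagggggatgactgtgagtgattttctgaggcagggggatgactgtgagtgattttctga
chr9:123371056-123371305: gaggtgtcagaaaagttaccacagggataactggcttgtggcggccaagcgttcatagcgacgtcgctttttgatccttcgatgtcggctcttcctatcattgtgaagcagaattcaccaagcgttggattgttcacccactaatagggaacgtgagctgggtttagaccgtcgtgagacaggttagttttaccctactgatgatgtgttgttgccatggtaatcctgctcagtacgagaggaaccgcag
chr1:197067902-197067985: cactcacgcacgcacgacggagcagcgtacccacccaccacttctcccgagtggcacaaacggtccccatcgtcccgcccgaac
chr19:61275596-61275754: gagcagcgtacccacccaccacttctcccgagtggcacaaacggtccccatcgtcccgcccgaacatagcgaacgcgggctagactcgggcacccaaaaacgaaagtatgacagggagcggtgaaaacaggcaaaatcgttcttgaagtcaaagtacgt

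The ends held more junctions per Mb than the rest of the same chromosomes in every one of the 24 pools. The ratio of junctions per Mb, end over rest, averaged 1.23 ± 0.036 in NPC under APH, 1.39 ± 0.091 in NPC under DMSO, 1.47 ± 0.146 in ESC under APH and 1.47 ± 0.146 in ESC under DMSO (SD, n = 6 pools each). In each condition 6 of 6 pools lay above 1, with p = 0.03125 in the exact two-sided sign-flip test of the log2 ratio, the smallest p that 6 pools allow, and 0.03125 after Benjamini-Hochberg adjustment over the 4 conditions. The ratio was also above 1 in 19 of 19 single experiments of NPC under APH, 23 of 24 of NPC under DMSO, 27 of 28 of ESC under APH and 16 of 16 of ESC under DMSO. These are the 87 experiments that 21 pools mark by a letter; they make up the same pools and are not a second test.

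In NPC under APH the ratio was 1.25, 1.21 and 1.25 in line 1 and 1.24, 1.17 and 1.27 in line 2, for the baits on chromosomes 7, 12 and 15 in that order here and in the sentences that follow. In NPC under DMSO it was 1.503, 1.36 and 1.37 in line 1 and 1.48, 1.36 and 1.25 in line 2. The 6 NPC pools under APH spanned the narrowest range, and of the DMSO pools only that of line 2 with the bait on chromosome 15 reached into it. In ESC under APH it was 1.41, 1.32 and 1.59 in line 1 and 1.32, 1.49 and 1.68 in line 2. In ESC under DMSO it was 1.53, 1.26 and 1.47 in line 1 and 1.71, 1.47 and 1.41 in line 2. The range of the ESC pools under APH lay within that of the ESC pools under DMSO. The deepest pool, NPC line 1 with the bait on chromosome 15 under APH, had 4.82% of its off-bait junctions in the ends (95% Clopper-Pearson interval 4.67 to 4.98%), and the shallowest, ESC line 1 with the bait on chromosome 7 under DMSO, had 5.95% (5.20 to 6.78%). The intervals cover counting error only, since no source names molecular identifiers and reads may be copies of 1 molecule.

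**Figure D1:**
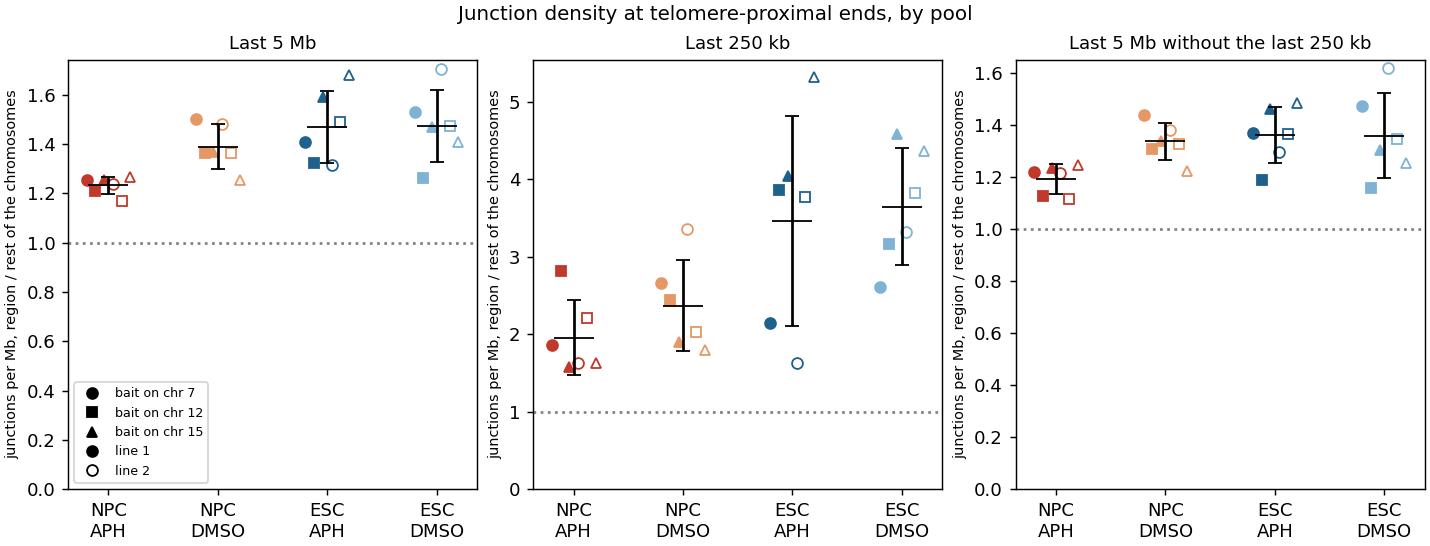
Junctions per Mb in the last 5 Mb, in the last 250 kb and in the last 5 Mb without the last 250 kb, each divided by junctions per Mb in the rest of the chromosomes; each point is 1 pool, with its marker giving the bait and its fill the line, and bars are mean ± SD of 6 pools. All points lie above the dotted line at 1, and the last 250 kb reach ratios up to 5.32.

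In NPC the ratio was lower under APH in 5 of 6 pairs of a line and a bait, but the difference missed the threshold in the paired test. The mean difference, APH minus DMSO, was -0.17 ± 0.104 on the log2 scale (SD, n = 6 pairs, exact sign-flip p = 0.0625, adjusted p = 0.104 over the 5 comparisons). It ranged between -0.26 and 0.01 over the pairs, and the 1 pair above 0 was line 2 with the bait on chromosome 15. Without the line and bait block, the exact permutation test of 6 against 6 pools gave adjusted p = 0.00866 for the same difference. When single experiments were paired by their letter, the ratio was lower under APH in 17 of 19 pairs, with a mean of -0.21 and adjusted p = 0.00524 (permutation test over letters). These letters come from 5 of the same 6 line and bait pairs and lack the 1 pair above 0, without which the 5 pairs also averaged -0.21. No label ties a letter under APH to the same letter under DMSO, so the letter pairs are no independent support. Within single sequencing runs, read from the read names and counted within a line and bait, the ratio was lower under APH in 10 of 13 runs. The median difference was -0.24. These runs hold reads of the same 6 pairs, so they are no independent support either.

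In ESC the mean difference, APH minus DMSO, was -0.01 ± 0.218 (SD, n = 6 pairs, exact adjusted p = 0.938), with 2 of 6 pairs lower. It changed sign when the end was measured in other ways, which the closing section lists, and single experiments paired by letter gave 0.08 (16 pairs, permutation test, adjusted p = 0.263). Those letters come from 4 of the 6 line and bait pairs and lack the bait on chromosome 7, whose pairs were the 2 below 0. Within runs of the same pools the ratio was lower under APH in 9 of 14 runs, with a median difference of -0.08. The APH difference in NPC minus that in ESC was -0.16 ± 0.143, lower in 5 of 6 pairs (exact p = 0.0625, adjusted p = 0.104), so a difference of the APH response between the cell types was not shown.

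NPC had lower ratios than ESC of the same line and bait in 6 of 6 pairs under APH. The mean difference, NPC minus ESC, was -0.25 ± 0.135 on the log2 scale (SD, n = 6 pairs, exact p = 0.03125, adjusted p = 0.104). Without the block its adjusted p was 0.00866. Under DMSO it was -0.08 ± 0.114 (exact p = 0.156, adjusted p = 0.195), with 5 of 6 pairs lower. NPC and ESC shared only 1 sequencing run in each treatment, where the difference was -0.16 under APH and -0.17 under DMSO, so outside these runs cell type and run cannot be told apart. ESC pools were also the shallower ones, as the junction numbers above show, and the part of depth in these differences was not tested. On average, ESC pools also held a lower share of positions met once, given with the junction features below.

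The ends were also set against the centromere-proximal ends. The last 5 Mb held 1.24 ± 0.194 times the junctions of the first 5 Mb above the lowest junction position in NPC under APH, 1.61 ± 0.219 times in NPC under DMSO, 1.57 ± 0.28 times in ESC under APH and 1.61 ± 0.33 times in ESC under DMSO (SD, n = 6 pools each). The exact sign-flip test passed in the last 3 of these conditions (adjusted p = 0.0417, 6 of 6 pools above 1 in each). In NPC under APH 5 of 6 pools lay above 1, with an exact adjusted p of 0.0938. The pools below or near 1 there were those with the bait on chromosome 12, at 1.01 in line 1 and 0.98 in line 2.

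Along the ends, the mean density was highest in the outermost bin in each condition, but in NPC under APH it hardly stood out. There the bin 2.0 to 2.25 Mb from the end stood at 1.93 ± 0.127 times the rest. Beyond the ends, the bin from 8.75 to 9 Mb stood at 1.96 ± 0.772 in NPC under APH and 2.25 ± 1.49 in NPC under DMSO (SD, n = 6 pools each). The last 250 kb held 1.95 ± 0.484 times the junctions per Mb of the rest in NPC under APH, 2.37 ± 0.588 times in NPC under DMSO, 3.46 ± 1.35 times in ESC under APH and 3.65 ± 0.753 times in ESC under DMSO (SD, n = 6 pools each). All 24 pools lay above 1 (exact p = 0.03125 in each condition, adjusted p = 0.03125). In NPC minus ESC the log2 difference of this ratio was -0.75 ± 0.669 under APH and -0.63 ± 0.604 under DMSO, neither past the threshold (exact adjusted p = 0.273 for both). The difference varied with the bait. Under APH, lines 1 and 2 gave -0.21 and 0.004 with bait 7, -0.46 and -0.77 with bait 12, and -1.36 and -1.71 with bait 15. Under DMSO the values were 0.03 and 0.01, -0.37 and -0.91, and -1.27 and -1.28 in that order. This bait pattern was not tested. The outermost bin was measured on its own only after its height had been seen.

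One chromosome weighed heavily in that bin. Chromosome 2 gave 443 of its 1940 junctions (22.8%), chromosome 3 gave 224 (11.5%) and the other 17 gave 33 to 127 each. Without chromosome 2 the ratio of the last 250 kb was 1.49 ± 0.089 in NPC under APH, 1.99 ± 0.647 in NPC under DMSO, 2.70 ± 1.01 in ESC under APH and 3.21 ± 0.911 in ESC under DMSO (SD, n = 6 pools each), above 1 in all 24 pools. Within the last 250 kb, the 25 kb stretches from 50 to 75 and from 75 to 100 kb held 151 and 171 junctions in NPC under APH, 45 and 52 in ESC under APH, and 48 and 52 in ESC under DMSO, more than the outermost 25 kb with 129, 31 and 25 in that order. In NPC under DMSO they held 102 and 89, and the outermost 25 kb held the most, 119. Of these 119, 44 lay in the site at the very end of chromosome 4 whose prey reads all held accacgcgtg. These 44 also count in the 1.99 given above for NPC under DMSO without chromosome 2. The busy sites of chromosome 2 all lie from 50 to 100 kb from its end. In NPC under APH they gave 36 and 27 of the 151 junctions, and 68 and 31 of the 171.

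Without the last 250 kb, the remaining 4.75 Mb of the ends still stood above the rest, at 1.19 ± 0.058 in NPC under APH, 1.34 ± 0.073 in NPC under DMSO, 1.36 ± 0.108 in ESC under APH and 1.36 ± 0.164 in ESC under DMSO (SD, n = 6 pools each). Over the 19 inner bins the median ratio to the rest was 1.16, 1.30, 1.38 and 1.29 in the same order of conditions. These bins ranged between 0.966 and 1.93 in NPC under APH and between 1.00 and 1.90 in ESC under DMSO. Over the 20 bins from 5 to 10 Mb the median was 1.21, 1.37, 1.26 and 1.27, lower than within the last 5 Mb in both ESC conditions and higher in both NPC conditions. The outer 2.5 Mb held 1.18, 1.13, 1.12 and 1.10 times the junctions of the inner 2.5 Mb, in the same order, and no condition passed the exact test (adjusted p = 0.125, 0.208, 0.208 and 0.313).

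**Figure D2:**
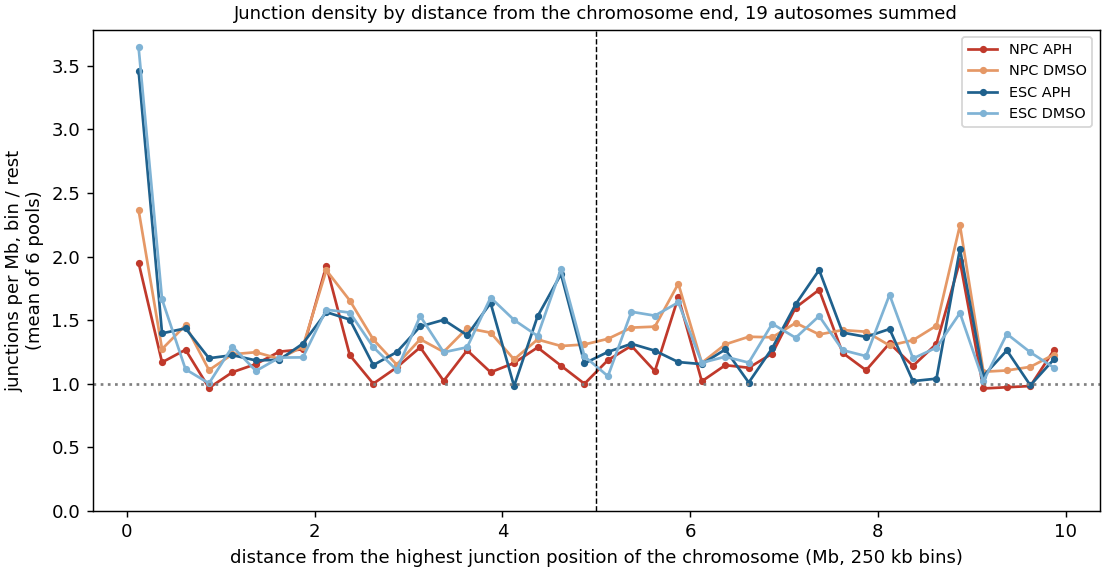
Junctions per Mb in each 250 kb bin divided by junctions per Mb in the rest of the chromosomes (mean of 6 pools, 19 autosomes summed), against the distance from the highest junction position in Mb; the dashed line marks 5 Mb. The outermost bin stands at 1.95 in NPC under APH, 2.37 in NPC under DMSO, 3.46 in ESC under APH and 3.65 in ESC under DMSO, and the bins from 5 to 10 Mb have medians of 1.21 to 1.37.

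The mean ratios of the 19 ends ran between 0.70 and 2.08. The ratio of the end to the rest of its own chromosome, averaged over all pools, was 2.08 ± 0.453 for chromosome 9 (SD, n = 24 pools) and 2.08 ± 0.827 for chromosome 15 (SD, n = 16 pools, since its own bait was left out). No order is read between these 2, since their pools differ and chromosome 15 had the higher mean in 3 of the 4 conditions. It was 1.87 ± 0.693 for chromosome 4, 1.75 ± 0.557 for chromosome 2 and 1.59 ± 0.346 for chromosome 8 (SD, n = 24 pools each). These 5 were above 1 in nearly all of their pools, with 23 of 24 for chromosome 4 and all pools for the others.

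Some ends were poorer than the rest of their chromosome. The lowest ratios were 0.70 ± 0.226 for chromosome 18, 0.78 ± 0.246 for chromosome 12 and 0.81 ± 0.317 for chromosome 13 (SD, n = 24, 16 and 24 pools). Chromosome 17 followed at 0.93 ± 0.398 and chromosome 14 at 1.13 ± 0.342 (SD, n = 24 pools each). The chromosome 18 end lay above 1 in 2 of 24 pools and that of chromosome 12 in 4 of 16. A mean ratio above 1 was found for 13 of 19 ends in NPC under APH, 15 in NPC under DMSO, 16 in ESC under APH and 15 in ESC under DMSO. Summed over all pools, 15 of 19 ends lay above the median 5 Mb window of their own chromosome, and 2 of 19 ranked first. Neighbours in this order overlapped within their SD.

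**Figure D3:**
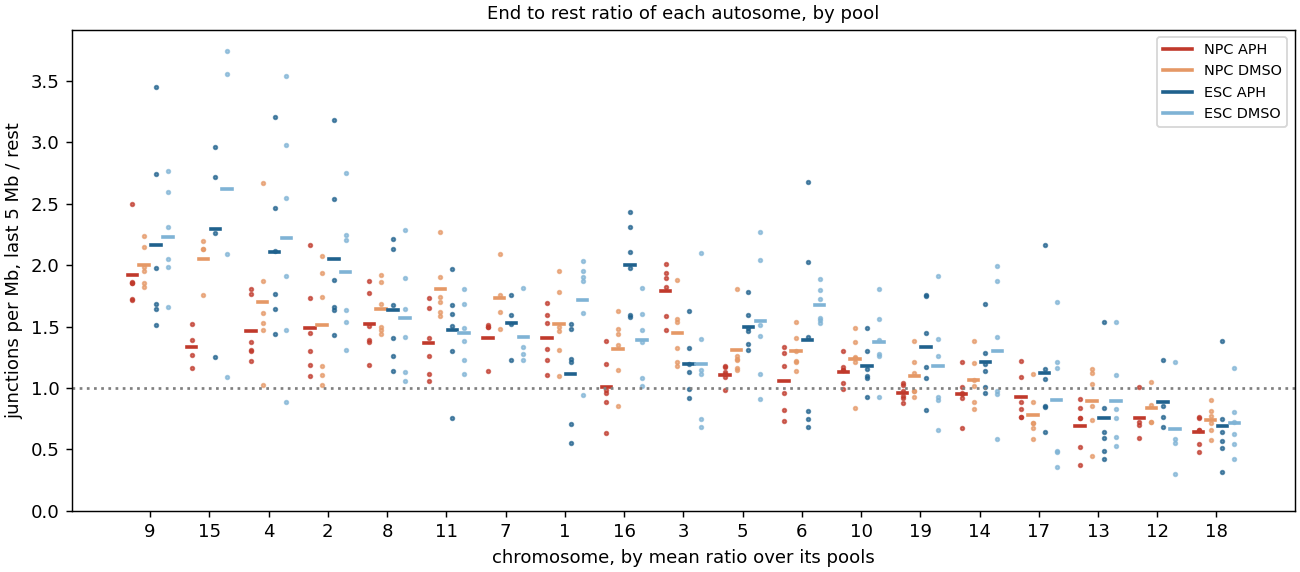
Ratio of junctions per Mb in the last 5 Mb to the rest of the same chromosome, for each autosome in order of its mean over all pools; dots are pools and bars the mean of a condition. Chromosomes 9 and 15 average 2.08, and chromosomes 18, 12, 13 and 17 average below 1.

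Between conditions, single ends were tested in one model over all 5 Mb windows of the autosomes, with edgeR's quasi-likelihood test, TMM normalization and Benjamini-Hochberg adjustment over 472 windows. Values are junctions per 10000 off-bait junctions of a pool. For APH against DMSO in NPC, 1 of the 19 ends passed, where 8.26% of all windows did, 7.2% as higher and 1.06% as lower under APH. This was the end of chromosome 15. It held 29.3, 26.9, 27.1 and 24.2 junctions per 10000 in NPC under APH, against 44.1, 35.9, 40.9 and 43.1 in NPC under DMSO (the pools with the bait on chromosome 7 and 12 in line 1, then in line 2). The 4 APH pools all lay below the 4 DMSO pools, at a log2 difference of -0.54 ± 0.165 (SE), with an edgeR adjusted p of 0.0173. DESeq2 and the fit without the block did not call it (adjusted p = 0.231 and 0.266), and the fits without either line gave 0.599 and 0.0829. With a line and bait pair left out, 4 of the 6 fits lost the call. Leaving out a pair with the bait on chromosome 15 removed no pool from the test of this end, so those fits say nothing about its stability.

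For APH against DMSO in ESC no end passed in edgeR, where 2.33% of all windows did, 2.12% as higher and 0.212% as lower; 3 ends had an unadjusted p under 0.05 and DESeq2 called 0. The APH effect differed between NPC and ESC at no end, where 0.212% of windows passed, with 2 ends at an unadjusted edgeR p under 0.05 and 0 calls by DESeq2. The median log2 change of the 19 ends was -0.07 in NPC and 0.02 in ESC, beside -0.02 and -0.00 over all windows.

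For NPC against ESC under APH, 3 of the 19 ends passed, all lower in NPC, where 13.6% of all windows passed, 6.14% as higher and 7.42% as lower. The median over the 19 ends was -0.31, beside -0.09 over all windows. The end of chromosome 16 held 17.4 to 32.8 junctions per 10000 (median 24.1) in NPC under APH, against 34.9 to 57.5 (median 41.4) in ESC under APH. All 6 NPC pools lay below all 6 ESC pools. The log2 difference came to -0.88 ± 0.169 (SE), with an edgeR adjusted p of 0.00023. Of the 14 alternatives, only the fit without line 1 lost this call (edgeR adjusted p = 0.0726).

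The end of chromosome 15 held 24.2 to 29.3 junctions per 10000 in the 4 NPC pools under APH, against 28.7, 48.7, 57.5 and 61.8 in the 4 ESC pools, and the groups overlapped by 1 ESC pool. Its log2 difference came to -0.84 ± 0.217 (SE), with an edgeR adjusted p of 0.00586; without line 2 the value was -0.40 (adjusted p = 0.514), and without the pools of line 2 with the bait on chromosome 12 it was -0.63 (adjusted p = 0.126). The end of chromosome 5 held 23.9 to 28.0 (median 25.3) in NPC under APH, against 29.6 to 47.0 (median 37.2) in ESC under APH, with no overlap. Its log2 difference came to -0.58 ± 0.176 (SE), with an edgeR adjusted p of 0.0193, and 5 of the 14 alternatives lost it, among them the fits without line 1 (0.444), without line 2 (0.0769) and with each position counted once (-0.41, 0.108). Under DMSO no end differed between NPC and ESC in edgeR, where 1.27% of windows passed, 0.636% in each direction; 3 ends had an unadjusted p under 0.05 and DESeq2 called 0.

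At the size of 250 kb, only 18 of the 380 end bins had enough junctions to be tested, among 165 over all autosomes, so most bins could not be compared between conditions at this depth. The median end bin held 1.32 junctions per 10000 as a mean over pools, and the range was 0.246 to 12.04. The 10 bins with the highest mean level over pools lay on chromosomes 2, 3, 7, 8, 9 and 16. Genes are named for these bins only where prey reads matched 25 letters of a RefSeq promoter (build GRCm38.p6, used for names alone). In the ends, 306 junctions matched promoter letters of 198 genes, but many of these genes were out of place in the RefSeq gene order. St7, for example, was matched at positions from 145116271 to 148043184 of chromosome 6. Such a match alone does not place a gene in an end. The genes named below were in RefSeq order.

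The last 250 kb of chromosome 2 (mm9 181487725 to 181737724) had the most junctions of all 380 bins, 443 at 277 positions, with a mean of 12.04 per 10000 over 24 pools. A read there matched the promoter of Polr3k, a subunit of RNA polymerase III. The means were 10.4 ± 8.44 in NPC under APH, 9.31 ± 4.22 in NPC under DMSO, 16.98 ± 10.3 in ESC under APH and 11.5 ± 8.24 in ESC under DMSO (SD, n = 6 pools each), and edgeR called no comparison of this bin. Most of the high pools had the bait on chromosome 12. The 8 pools with the bait on chromosome 12 held 11.5 to 27.3 per 10000 (median 21.3), against 4.42 to 8.65 (median 6.00) in the 8 pools with the bait on chromosome 7 and 4.65 to 27.9 (median 5.79) in those with the bait on chromosome 15. The bait on chromosome 12 was higher than the bait on chromosome 7 in 8 of 8 matched pools, and higher than that on chromosome 15 in 7 of 8. The bait pattern was noticed in these values and was not tested. The site printed first above gave 148 of the 443 junctions.

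The bin 2.0 to 2.25 Mb from the end of chromosome 9 came next by mean level, with 424 junctions at 296 positions. Its reads matched the promoter of Pomgnt2, a glycosyltransferase that acts on dystroglycan. It held 10.1 to 14.3 junctions per 10000 (median 11.9) in NPC under APH, 5.03 to 11.7 (median 8.00) in NPC under DMSO, 1.34 to 8.85 (median 5.76) in ESC under APH and 0 to 17.5 (median 8.69) in ESC under DMSO. Under APH all 6 NPC pools lay above all 6 ESC pools. The log2 difference of NPC against ESC under APH came to 1.49 ± 0.544 (SE), with an edgeR adjusted p of 0.0166, 1 of 3 end bins called in this comparison, where 43% of all bins tested were, 30.9% as higher and 12.1% as lower in NPC. Without 1 kb sites of 20 or more junctions it was 0.72 (edgeR adjusted p = 0.296). The call was also lost with total junctions as library size (edgeR adjusted p = 0.0856), without the block (0.0525), without line 1 (0.0722) and without the pools of line 2 with the bait on chromosome 12 (0.0626). This bin holds 5 such sites within a few kb, the GGCA site printed above among them, and that site gave 60 of the 257 junctions in NPC under APH and 5 of the 22 in ESC under APH.

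The neighbouring bin of chromosome 9, 2.25 to 2.5 Mb from the end, held 173 junctions. Its reads matched the promoters of Ccdc13 and of Cyp8b1, a sterol hydroxylase of bile acid synthesis. It held 2.59 to 7.67 junctions per 10000 (median 5.47) in NPC under DMSO, against 0 to 9.52 (median 1.23) in ESC under DMSO, where 3 of 6 pools were at 0. The groups overlapped. It was the 1 end bin called for NPC against ESC under DMSO, at a log2 difference of 1.90 ± 0.652 (SE) and an edgeR adjusted p of 0.0278, where 15.8% of bins were called, 12.7% as higher and 3.03% as lower in NPC. The ESC values rest on 8 junctions. DESeq2 did not call it (adjusted p = 0.0570), nor did edgeR with total junctions as library size (1.26, adjusted p = 0.232), without the block (adjusted p = 0.0864), without line 1 (0.539) or without busy sites (0.0532).

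Bins at the very end of chromosomes 3, 16 and 7 were also among these 10, and passed in no comparison. The last 250 kb of chromosome 3, where reads matched the promoter of Wls, a carrier of Wnt proteins, averaged 5.42 ± 0.867 junctions per 10000 in NPC under APH, 5.34 ± 2.34 in NPC under DMSO, 3.53 ± 2.98 in ESC under APH and 3.31 ± 4.46 in ESC under DMSO (SD, n = 6 pools each). The last 250 kb of chromosome 16, where reads matched the promoter of Prdm15, a zinc-finger factor, averaged 2.21 ± 0.698, 2.75 ± 0.779, 3.17 ± 3.15 and 7.14 ± 5.59 in the same order of conditions (SD, n = 6 pools each). The last 250 kb of chromosome 7 averaged 1.89 ± 0.254, 2.44 ± 1.03, 6.998 ± 2.79 and 3.42 ± 2.69 in that order (SD, n = 4 pools each). In these bins the SD was larger in ESC than in NPC of the same treatment, and the ESC values of a condition rest on 9 to 24 junctions.

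The bins on chromosomes 16 and 8 called for NPC against ESC under APH were both lower in NPC and each held a run of C. The bin 4.5 to 4.75 Mb from the end of chromosome 16, whose reads matched the promoters of Dop1b and of Cbr1, a carbonyl reductase, held 0 to 2.12 junctions per 10000 (median 1.30) in NPC under APH, against 4.31 to 14.4 (median 8.63) in ESC under APH, with no overlap. Its log2 difference came to -2.28 ± 0.558 (SE), with an edgeR adjusted p of 0.00025. The bin reached the level of the low-count filter in 5 pools of ESC under APH, 2 of ESC under DMSO and no NPC pool, so it was tested only through the cells in which it was high, and the call is no support beyond the levels. The C run printed above gave 10 of its 31 junctions in NPC under APH and 24 of its 37 in ESC under APH. Outside that 1 kb site the summed level was 0.938 per 10000 in NPC under APH and 3.22 in ESC under APH.

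The bin 3.0 to 3.25 Mb from the end of chromosome 8, whose reads matched the promoter of Kcnk1, a potassium channel, held 0 to 3.02 junctions per 10000 (median 1.83) in NPC under APH, against 0 to 22.9 (median 4.77) in ESC under APH, and the groups overlapped. Its log2 difference came to -1.50 ± 0.599 (SE), with an edgeR adjusted p of 0.0325. It too met the filter through ESC pools alone, 3 under each treatment. The C run there gave 4 of 40 junctions in NPC under APH and 26 of 33 in ESC under APH, and outside that site the summed level was 1.61 per 10000 in NPC under APH and 1.73 in ESC under APH. Without line 1 both lost their calls, at -1.99 on chromosome 16 (edgeR adjusted p = 0.168) and -0.34 on chromosome 8 (0.898), and without the filter on low counts they did too (0.0669 and 0.286). Without line 2 the chromosome 16 bin stood at -1.37 (0.166) and the other was not tested. With sites of 20 or more junctions left out, both C-run bins fell under the count minimum and were not tested. The whole end of chromosome 16 stayed lower in NPC without such sites, at a log2 difference of -0.73 (edgeR adjusted p = 0.00273).

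For APH against DMSO in NPC, 1 of the 18 end bins tested passed, where 17% of all bins did, 16.4% as higher and 0.606% as lower under APH. It lay 4.25 to 4.5 Mb from the end of chromosome 17, and no read in it matched a promoter. It held 6.78, 4.92 and 4.39 junctions per 10000 in line 1 and 9.45, 6.04 and 4.37 in line 2 in NPC under APH, against 0, 0.983 and 0.314 in line 1 and 2.34, 1.92 and 3.58 in line 2 in NPC under DMSO (baits on chromosomes 7, 12 and 15). All 6 APH pools lay above all 6 DMSO pools. The log2 difference came to 1.56 ± 0.532 (SE), with an edgeR adjusted p of 0.0248. The bin met the low-count filter in 4 pools of NPC under APH, 3 of ESC under APH and no DMSO pool, so it was tested only through the treatment under which it was high. The call was lost under 5 of 6 other settings and in 4 of the 5 fits with a line and bait pair left out that could test it; DESeq2 gave an adjusted p of 0.0883. In ESC its mean was 5.04 ± 3.54 under APH and 1.13 ± 1.25 under DMSO (SD, n = 6 pools each), which did not pass (log2 2.37 ± 0.902, SE, edgeR adjusted p = 0.108).

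For APH against DMSO in ESC edgeR called 0 of the 18 end bins, where 6.67% of all bins were called; 4 had an unadjusted p under 0.05, and DESeq2 called 0. The bins 2.0 to 2.25 and 1.75 to 2.0 Mb from the end of chromosome 8 were among these 4, at log2 1.92 ± 0.754 and 1.77 ± 0.784 (SE, edgeR adjusted p = 0.120 and 0.196). The first held 2.21 to 17.1 junctions per 10000 (median 5.26) in ESC under APH, against 0 to 5.82 (median 1.69) under DMSO. The second held 0 to 24.8 (median 2.94) against 0 to 4.91 (median 0.92). Both highest values came from line 2 with the bait on chromosome 15 under APH. The DMSO values of each bin rest on 6 junctions. No bin of the whole table passed for the difference of the APH effect (0% of 165 bins in edgeR, with 1 end bin at an unadjusted p under 0.05 and 0 by DESeq2).

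**Figure D4:**
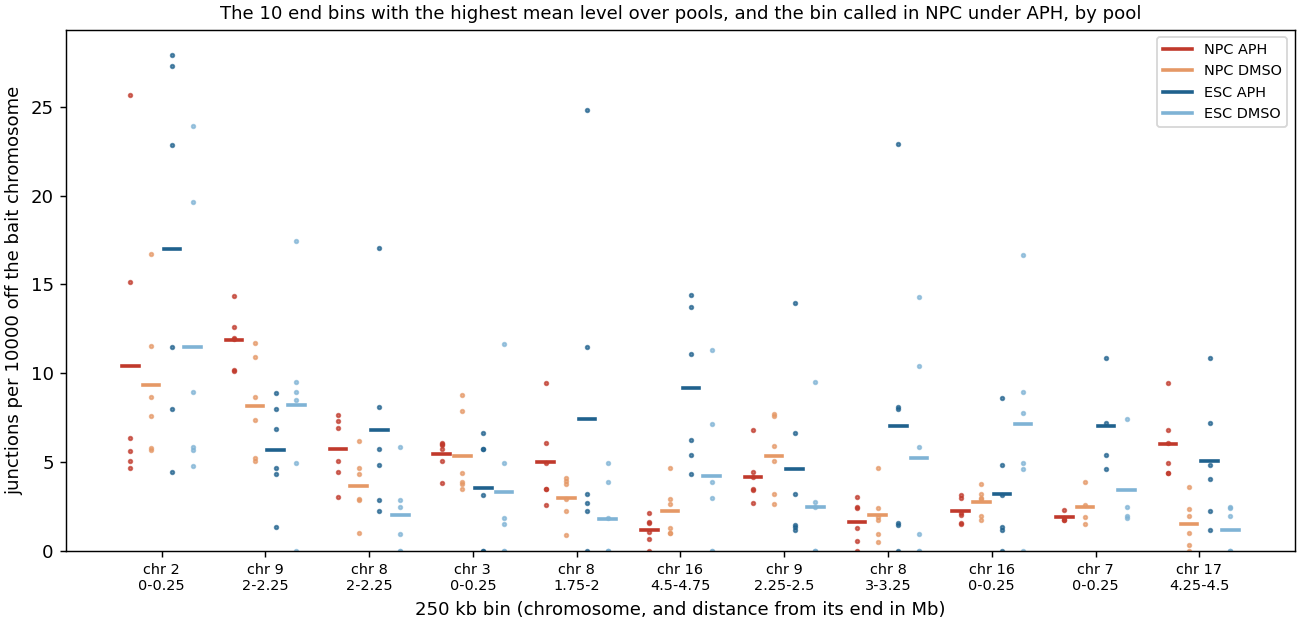
Junctions per 10000 off-bait junctions in the 10 end bins with the highest mean level over pools and, at the right, in the bin of chromosome 17 that passed for APH in NPC; dots are pools and bars the mean of a condition. The last 250 kb of chromosome 2 reach 27.9 and the chromosome 17 bin stands apart between NPC under APH and NPC under DMSO.

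Strand, blunt joins, inserted bases and positions met once were compared between the ends and the rest. The share of junctions on the plus strand was 50.8% in the ends and 49.5% in the rest in NPC under APH, and blunt joins made up 6.74% and 6.92%. Inserted bases were found in 17.4% of junctions in the ends and 17.3% in the rest in NPC under APH, and in 28.7% and 29.95% in ESC under APH. Positions met once made up 91.8% (ends) and 92.1% (rest) of junctions in NPC under APH, and 91.4% and 91.4% in NPC under DMSO. They made up 68.8% and 70.04% in ESC under APH, and 71.6% and 73.4% in ESC under DMSO. In the ends, single pools ran from 79.5 to 96.5% in NPC and from 46.9 to 93.3% in ESC. Neither this difference between cell types nor the origin of repeated positions was tested. None of the 16 comparisons of end and rest over 4 features and 4 conditions passed (exact sign-flip test, n = 6 pools each, adjusted p of 0.5 or more).

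The GC content of the prey letters was higher in the ends in every pool, but the adjusted p missed the threshold. Over the first 50 prey bases, GC content was 47.1 ± 1.16% in the ends and 45.3 ± 1.07% in the rest in NPC under APH, 47.4 ± 1.03% and 45.7 ± 1.08% in NPC under DMSO, 47.8 ± 1.63% and 46.6 ± 1.62% in ESC under APH, and 47.7 ± 1.92% and 46.4 ± 1.31% in ESC under DMSO (SD, n = 6 pools each). In each condition 6 of 6 pools were higher in the ends (exact p = 0.03125, adjusted p = 0.0938 over 12 tests of prey letters). Simple tandem repeats made up 5.80 ± 3.54% of prey reads in the ends and 5.85 ± 3.96% in the rest in NPC under APH, and did not differ past the threshold in any condition (adjusted p of 0.225 or more). The telomere hexamer in tandem was found in 25 of 22416 prey reads of the ends (0.112%) and in 157 of 417908 of the rest (0.0376%). In the last 250 kb 8 of 1940 reads held it. Its share over pools did not pass between the ends and the rest in any condition (exact sign-flip test, n = 6 pools each, adjusted p = 0.375 to 0.75).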

How the data were processed

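Translocation junctions were counted in 24 pools of 104 experiments on cultured mouse cells. The authors deposited 1 table per pool with 1 row per junction, so a value here is a count of rows. Reads were aligned with Bowtie2 to mm9, per the submitters' processing notes; its version and the junction caller are not stated there or in the file headers. Of 2037403 rows, 18609 repeated reads in 2 pools were removed, which left 2018794 junctions. A further 33961 rows of 1 pool with other filter entries were kept and left out as an alternative. In 3 pools the experiment letters did not match the labels, so these were used only as pools. The regions, and the lists and alternatives around them, were chosen with earlier results of these data known.

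Density is junctions per Mb. Ratios were tested with exact two-sided sign-flip tests over 6 pairs of a line and a bait, and windows and bins with edgeR 4.0.16 quasi-likelihood tests (TMM, filterByExpr with a minimum count of 5, adjusted p threshold 0.05); DESeq2 1.42.0 was an alternative. Scripts ran in R 4.3.3 and Python 3.11.15 (numpy 2.4.6, pandas 2.3.3, scipy 1.17.1, matplotlib 3.10.9) and were tested on simulated data. The pairing comes from the labels, since paired pools share line and bait. Same-block pools deviated together over 401 windows, with correlations of 0.0979 to 0.475 in NPC and 0.119 to 0.247 in ESC. Named regions are ends and bins past the threshold, the 5 ends with the highest and the 5 with the lowest ratio, and the 10 bins with the highest mean junctions per 10000. Sequences are the letters shared by at least 60% of 3 or more aligned prey reads, placed on mm9 by the deposited alignments; no genome was used. Gene names come from RefSeq promoters of GRCm38.p6. The printed sites, the last 250 kb, the prey letters and the fits without busy sites were chosen after the data had been seen.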

Additional observations from a re-analysis of the deposited data

Results flagged for a closer look

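Of 80 groups of pools checked, 4 had a pool far from the others, where chance gives about 1 in 20. The bin 2.25 to 2.5 Mb from the end of chromosome 9 held 9.52 junctions per 10000 in ESC line 2 with the bait on chromosome 7 under DMSO, against 0 to 2.76 in the other 5 pools of that condition. The bin 3.0 to 3.25 Mb from the end of chromosome 8, which holds a C run, stood at 22.9 in ESC line 1 with the bait on chromosome 15 under APH, against 0 to 8.06 in the other 5 pools. In the last 250 kb of chromosome 7, NPC line 2 with the bait on chromosome 12 under APH held 2.27 against 1.73 to 1.81 in the other 3 pools, and ESC line 1 with the bait on chromosome 15 under DMSO held 7.43 against 1.84 to 2.46 in the other 3 pools.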

How the results depend on the processing

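The ratio of the ends to the rest kept its direction in all 104 alternatives over the 4 conditions. Those with all 6 pools of a condition also kept their side of the threshold, and those that leave out pools are values with no test, since fewer than 6 pools cannot pass it. The APH difference in ESC changed sign, to 0.0068 with the last 2.5 Mb, 0.0233 against the median window of the rest, 0.0073 without the last 250 kb and, where the letters leave out the bait on chromosome 7, 0.0819 with experiments paired by letter; other causes were not tested. It was also above 0 without the bait on chromosome 7 (0.113) and without line 2 (0.0222), and ranged from -0.0586 to 0.0669 with a pair left out in turn. Without the replicate block, which drops the pairing, the APH difference in NPC (-0.17) and NPC minus ESC under APH (-0.25) passed the threshold, and the APH difference in NPC also passed with experiments paired by letter (-0.21), which lack its 1 pair above 0.

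Of the 19 ends, the 1 called for APH in NPC became 0 with DESeq2, without the replicate block and without line 1, 2 with each position counted once, and 0 to 3 with a pair left out in turn. The 3 called for NPC against ESC under APH became 5 with each position counted once, 1 without line 1, 1 without line 2, and 2 to 5 with a pair left out. Of the 250 kb bins, the 1 called for APH in NPC became 0 without the count filter, with DESeq2, without the replicate block, without busy sites and without line 1, and 0 to 1 with a pair left out. The 3 for NPC against ESC under APH became 27 without the filter, 5 with DESeq2, 1 without line 1 and 1 to 4 with a pair left out. The 1 for NPC against ESC under DMSO became 0 with total junctions as library size, DESeq2, no replicate block, no busy sites or no line 1, 13 without the filter, and 0 to 2 with a pair left out. Leaving out pools leaves fewer samples; other causes were not tested. ESC pools held 3544 to 10869 off-bait junctions, and 18 of 380 end bins could be tested.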
